A study of Mus musculus with 9 samples.

Results

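The genes described here are 9 genes by which cortical GABAergic interneurons are commonly recognised, namely Gad1, Gad2, Slc32a1, Dlx1, Dlx2, Dlx5, Lhx6, Sst and Npy. They were chosen by name, and all RefSeq transcript rows of each gene in the deposited table of estimated counts, 24 of 107384 rows, were summed per gene. All 9 passed the filter on low values, a CPM (the count scaled to a common library size) of at least 0.5 in at least 3 libraries, and so stood among 15263 protein-coding genes tested. RNA bound to CELF2, an RNA-binding protein that acts in splicing, mRNA stability and translation, was measured by RNA immunoprecipitation and sequencing (RIP-seq). The material was the cytoplasmic fraction of cortex at postnatal day 0 from mice heterozygous for a Celf2 knock-in (KI) allele, R493H. A CELF2 antibody gave the 3 CELF2-KI RIP libraries, normal rabbit IgG gave the 3 IgG RIP libraries, and lysate set aside before the pull-down gave the 3 input libraries. The antibody amount was 10 µg for 3 hours in both pull-downs.

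All 3 groups carried the same genotype, so no comparison here is between mutant and wild-type mice, and a heterozygote also holds CELF2 from its wild-type allele. The lysate mixed all cell types of the cortex. In such bulk samples fewer cells of a type and less RNA per cell cannot be told apart. By staining of older mice, the paper reports high CELF2 in excitatory neurons and low CELF2 in inhibitory neurons. Which cells the bound RNA came from was not tested. The labels call the libraries biological replicates, but do not say whether they came from separate animals or pools, so p-values measure only the spread between these libraries. The total of estimated counts per library was 15919600 to 20052716 in CELF2-KI RIP, 17365561 to 28773130 in IgG RIP and 69125700 to 105116427 in input. The share of these counts that could be matched to a gene was 87.35% to 88.36% in CELF2-KI RIP and 90.22% to 90.73% in input, but 56.52% to 78.92% in IgG RIP.

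Cortical interneurons arise in the ganglionic eminences of the ventral forebrain, migrate into the cortex and release GABA, the main inhibitory transmitter. DLX homeodomain factors act early in this lineage, the LIM-homeodomain factor LHX6 acts in cells from the medial ganglionic eminence, and many of those cells go on to make the peptides somatostatin or neuropeptide Y. GABA neurons of the striatum share several of these genes, including Gad1, Gad2 and Slc32a1.

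The 9 transcripts were not pulled down alike. Against IgG RIP, Lhx6, Npy and Dlx1 were higher in CELF2-KI RIP by 4.75-fold, 4-fold and 2.77-fold, and Sst was 4.38-fold lower. Against input, only Lhx6 among the 9 rose past the threshold (2.68-fold), and Sst and Dlx2 fell (11.8-fold and 2.31-fold). A call here needed a Benjamini-Hochberg FDR under 0.01 in edgeR's quasi-likelihood test over all tested genes together with an estimated change that reached 2-fold. Thus 3 of the 9 genes were called higher than in IgG RIP, where 13.4% of all tested genes were, and 1 was called lower, where 13.5% were. Against input, 1 was called higher and 2 lower, beside 14.6% and 15.5% of all tested genes. With so few genes these shares are given as a description. The split moved with the scaling of the libraries. Scaled by total counts, 3 of the 9 genes were called higher and 2 lower against IgG RIP (6.14% and 22.4% of all tested genes), while against input 3 were called lower and Lhx6 no longer reached the call (0.94, FDR 0.0185), beside 3.48% of all tested genes higher and 23.5% lower.

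The study defined targets as higher than both controls. Lhx6 alone among the 9 met both calls, as 7.58% of all tested genes did, and Sst alone was called lower than both, as 9.52% did. At an FDR under 0.01 with any fold, 5 genes exceeded IgG RIP and 2 were below it (22.9% and 19.2% of all tested genes), while 4 exceeded input and 3 were below it (26.8% and 20.1%). The median log2 fold change of the 9 was 0.71 against IgG RIP and 0.33 against input, where the medians of all tested genes were -0.06 and 0.19. With the main library scaling (TMM), the lowest CELF2-KI RIP library exceeded the highest of the 6 control libraries for Gad1, Dlx1 and Lhx6. The same held for 25.2% of all tested genes. For Dlx5 and Sst the highest CELF2-KI RIP library was below the lowest control, as for 19.9%. The separation of Gad1 from input was lost with scaling by total counts.

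**Figure D1:**
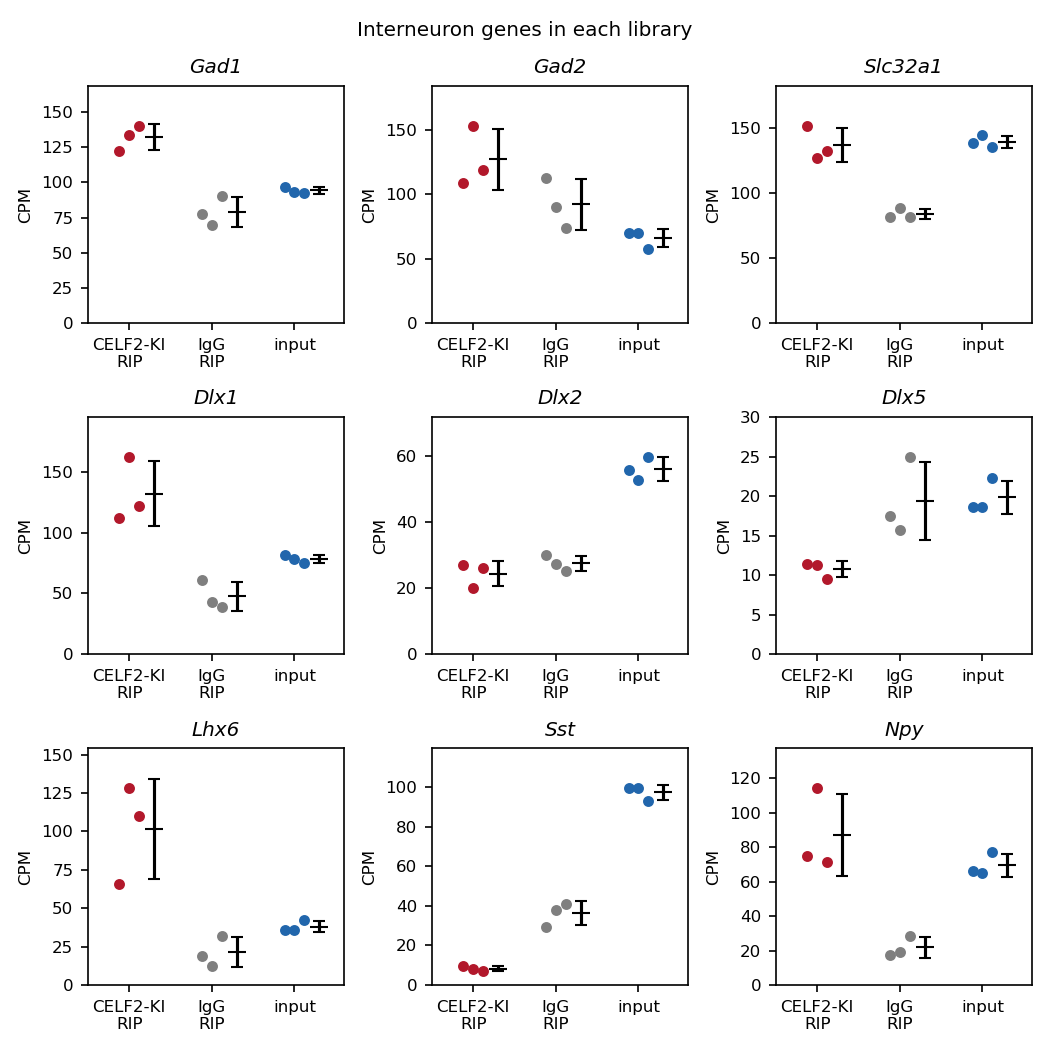
Level of each of the 9 genes, in CPM on the TMM-scaled library size, in each of the 9 libraries (points), with the mean and SD of each group of 3 beside them; each panel has its own axis from 0. Lhx6 sits at 65.9 to 129 CPM in CELF2-KI RIP, above every control library, whereas Sst sits at 7.14 to 9.68 CPM, below every control library.

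The first group, Gad1, Gad2 and Slc32a1, makes GABA and loads it into vesicles. Gad1 and Gad2 encode glutamate decarboxylases, which make GABA from glutamate, and Slc32a1 encodes the vesicular GABA transporter. All 3 lie on mouse chromosome 2, which holds 6 of the 9 genes (assembly GRCm38.p6): Gad1 at chr2:70561303-70602014, Gad2 at chr2:22621015-22693877 and Slc32a1 at chr2:158607260-158615747. None of the 3 was called at 2-fold in either comparison by edgeR, and 0 were by DESeq2. At an unadjusted p under 0.05, 3 were higher than in IgG RIP, beside 30.6% of all tested genes, and 2 were higher than in input, beside 37.2%.

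Gad1 was read at 122, 133 and 140 CPM in CELF2-KI RIP, at 77.2, 69.4 and 90.2 CPM in IgG RIP and at 96.9, 93.3 and 92.4 CPM in input. On the TMM scale the CELF2-KI RIP libraries were the highest 3 of the 9, but with scaling by total counts they overlapped input. The log2 fold change was 0.74 ± 0.12 (SE, n = 3 against 3; edgeR FDR 0.000436) against IgG RIP and 0.49 ± 0.12 (FDR 0.00473) against input, both past the FDR threshold and short of 2-fold. With DESeq2 the value against input was 0.35 (FDR 0.0101) and missed the threshold. Relative to the median of all tested genes, Gad1 stood at 0.29 against input under every scaling. That median was 0.19 in the main fit and -0.27 with total counts, so the rise over input depended on the scaling.

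Gad2 was read at 109, 154 and 119 CPM in CELF2-KI RIP, at 113, 89.8 and 73.9 CPM in IgG RIP and at 69.9, 69.8 and 57.9 CPM in input. One IgG RIP library lay above the lowest CELF2-KI RIP library, while CELF2-KI RIP and input did not overlap. It differed from IgG RIP by 0.46 ± 0.18 on the log2 scale (FDR 0.0504), with a 95% interval of 0.06 to 0.86, and from input by 0.95 ± 0.18 (FDR 0.00114). Without CELF2-KI RIP replicate 1 the value against input was 1.05 and passed 2-fold (FDR 0.00139).

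Slc32a1 was read at 152, 127 and 132 CPM in CELF2-KI RIP, at 81.7, 88.1 and 81.8 CPM in IgG RIP and at 139, 144 and 135 CPM in input. CELF2-KI RIP and input overlapped, and both lay above IgG RIP. Against IgG RIP its log2 fold change was 0.71 ± 0.10 (FDR 0.000255). Against input it was -0.03 ± 0.10 (FDR 0.841), with a 95% interval of -0.25 to 0.20.

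The second group is transcription factors. Dlx1 (chr2:71528113-71533981) and Dlx2 (chr2:71543408-71546754) are neighbours in the genome and encode related homeodomain factors of the ventral forebrain, and Dlx5 (chr6:6877801-6882068) encodes a later acting member of the same family. Lhx6 (chr2:36081950-36105992) encodes the factor of medial ganglionic eminence interneurons. Among these 4, Dlx1 and Lhx6 rose against IgG RIP, Lhx6 rose against input, and Dlx2 fell against input.

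Lhx6 was read at 65.9, 129 and 110 CPM in CELF2-KI RIP, at 19.1, 12.7 and 32.1 CPM in IgG RIP and at 36.1, 35.6 and 42.2 CPM in input. The lowest CELF2-KI RIP library was above the highest of the 6 controls. The means were 101.6 ± 32.2 CPM in CELF2-KI RIP, against 21.3 ± 9.86 CPM for IgG RIP and 38.0 ± 3.65 CPM for input (mean ± SD, n = 3). The log2 fold change was 2.25 ± 0.33 (edgeR FDR 0.000249) against IgG RIP, the 120th largest of the 15263 tested genes, and 1.42 ± 0.31 (FDR 0.00292) against input. Against input the call held in 5 of 9 fits that each left out 1 library. It was lost without CELF2-KI RIP replicate 2 (1.22, FDR 0.0149), CELF2-KI RIP replicate 3 (1.36, FDR 0.0118), input replicate 1 (1.38, FDR 0.0138) or input replicate 2 (1.26, FDR 0.02). It was also lost with TMM factors over coding and noncoding genes (1.01, FDR 0.0184) and when the change was tested against 2-fold itself with glmTreat (FDR 0.154). With curated RefSeq rows alone both calls for Lhx6 were lost, at 2.08 (FDR 0.0173) against IgG RIP and 1.14 (FDR 0.123) against input.

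Dlx1 was read at 112, 163 and 122 CPM in CELF2-KI RIP, at 60.9, 42.9 and 38.8 CPM in IgG RIP and at 81.8, 78.5 and 74.9 CPM in input. Its 3 groups did not overlap, with CELF2-KI RIP highest and IgG RIP lowest. Its log2 fold change was 1.47 ± 0.19 (FDR 0.000118) against IgG RIP and 0.75 ± 0.19 (FDR 0.00553) against input, the second short of 2-fold. Tested against 2-fold itself with glmTreat, the rise over IgG RIP had an FDR of 0.0324.

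Dlx2 was read at 27.0, 19.9 and 26.0 CPM in CELF2-KI RIP, at 29.9, 27.2 and 25.2 CPM in IgG RIP and at 55.5, 52.7 and 59.8 CPM in input. Both pull-downs lay below input and overlapped each other. Against input its log2 fold change was -1.20 ± 0.15 (FDR 6.55e-05), and against IgG RIP it was -0.18 ± 0.15 (FDR 0.336), with a 95% interval of -0.50 to 0.15.

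Dlx5 was read at 11.4, 11.3 and 9.55 CPM in CELF2-KI RIP, at 17.5, 15.7 and 25 CPM in IgG RIP and at 18.7, 18.6 and 22.3 CPM in input. CELF2-KI RIP was below every control library, on 107 to 146 counts per library. The log2 fold change was -0.85 ± 0.20 (FDR 0.00397) against IgG RIP and -0.88 ± 0.19 (FDR 0.00264) against input, neither at 2-fold. Without input replicate 2 the value against input was -1.04 and was called (FDR 0.00433), and DESeq2 also called it (-1.02). With the other scalings it was called against input, at -1.34 to -1.02, and with all but RLE factors it was called against IgG RIP, at -1.22 to -1.08.

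The ratio of counts between a pair of genes within 1 library does not depend on how libraries are scaled. The count of Dlx1 per count of Dlx2 was 4.15 to 8.15 in CELF2-KI RIP, 1.54 to 2.04 in IgG RIP and 1.25 to 1.49 in input. These neighbouring genes thus stood in a different ratio in the CELF2-KI RIP libraries than in any control library. The pair was singled out with its values in view, so its ratio is a description and has no test. A ratio was also taken for Gad1 per Gad2, and there CELF2-KI RIP overlapped IgG RIP. It was 0.868 to 1.18 in CELF2-KI RIP, 0.684 to 1.22 in IgG RIP and 1.34 to 1.6 in input.

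**Figure D2:**
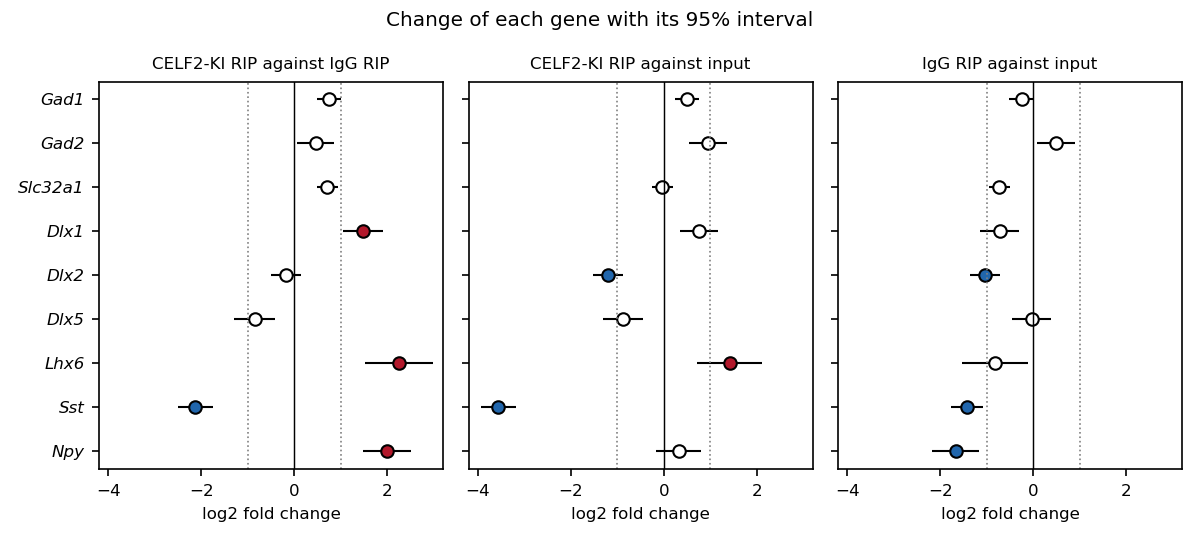
Log2 fold change of each gene (points) with its 95% interval (lines) in the 3 comparisons, from edgeR over all 9 libraries; dotted lines mark 2-fold, and filled points were called higher (red) or lower (blue). The interval for Sst against input runs from -3.94 to -3.18, and that for Slc32a1 in the same comparison includes 0.

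The third group is neuropeptides. Sst (chr16:23889573-23891342) encodes somatostatin and Npy (chr6:49822710-49829507) encodes neuropeptide Y, both inhibitory peptides released by interneurons. They moved in opposite directions against IgG RIP.

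Sst was read at 9.68, 7.93 and 7.14 CPM in CELF2-KI RIP, at 29.5, 38.1 and 41.2 CPM in IgG RIP and at 99.6, 99.9 and 92.8 CPM in input. The 3 groups did not overlap, with CELF2-KI RIP lowest, on 80 to 121 counts per library, and input highest. The log2 fold change was -2.13 ± 0.17 (FDR 9.98e-06) against IgG RIP and -3.56 ± 0.17 (FDR 4.05e-07) against input, the 168th most negative of the 15263 tested genes in that comparison.

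Npy was read at 75, 115 and 71.5 CPM in CELF2-KI RIP, at 17.5, 19.2 and 28.5 CPM in IgG RIP and at 66.3, 64.8 and 76.9 CPM in input. CELF2-KI RIP overlapped input, and both lay above IgG RIP. Against IgG RIP its log2 fold change was 2 ± 0.23 (FDR 5.82e-05). Against input it was 0.33 ± 0.22 (FDR 0.217) with a 95% interval of -0.16 to 0.81, and its sign turned to -0.15 with scaling by total counts and to -0.08 with TMM factors over coding and noncoding genes. The count of Npy per count of Sst was 7.74 to 14.4 in CELF2-KI RIP, 0.505 to 0.693 in IgG RIP and 0.648 to 0.829 in input, again a description of a pair chosen with its values in view.

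The comparison of IgG RIP with input gives the background of the pull-down without the CELF2 antibody. Here 3 of the 9 genes, Sst, Npy and Dlx2, were lower in IgG RIP, beside 5.01% of all tested genes, and 0 were called higher by edgeR or DESeq2, beside 6.79%. At an unadjusted p under 0.05, 6 were lower (24.2% of all tested genes) and 1, Gad2, was higher (24.9%). At an FDR under 0.01 with any fold, 4 were lower (11.2% of all tested genes) and 0 higher (12%). In this comparison the log2 fold change was -1.67 ± 0.23 for Npy (FDR 0.000552), -1.43 ± 0.15 for Sst (FDR 0.00021) and -1.03 ± 0.14 for Dlx2 (FDR 0.000621). Slc32a1 was lower by FDR only, at -0.73 ± 0.10 (FDR 0.000621). The median of the 9 was -0.73, beside 0 for all tested genes. With TMM factors over coding and noncoding genes the calls over all tested genes were 5.12% higher and 8.17% lower, and the 9 genes again gave 0 and 3.

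The level of Npy and Slc32a1 in CELF2-KI RIP thus exceeded IgG RIP, which lay below input, while it overlapped input. The call for Dlx2 was lost without IgG RIP replicate 3 (-0.97) or input replicate 3 (-1 after rounding, short of 2-fold), and Lhx6 was called lower in IgG RIP without IgG RIP replicate 3 (-1.24, FDR 0.00577). The 3 comparisons share libraries and are not independent of one another.

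**Figure D3:**
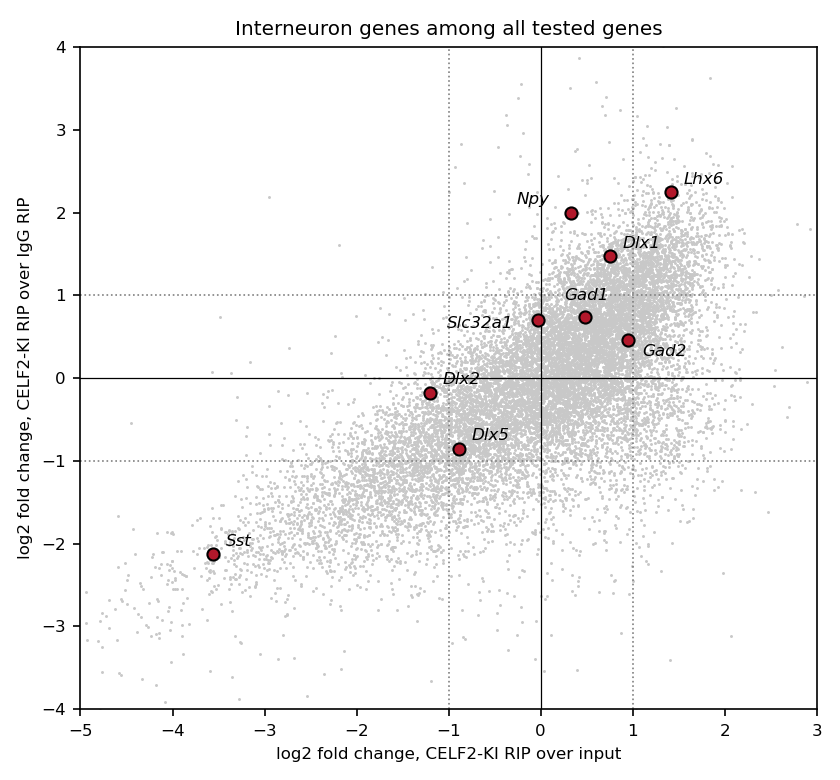
Log2 fold change against IgG RIP (vertical axis) and against input (horizontal axis) in CELF2-KI RIP for the tested genes (grey), with the 9 genes marked; dotted lines mark 2-fold, 77 genes lie outside the plotted range, and both axes share the CELF2-KI RIP libraries. Lhx6 stands past both upper lines, Sst past both lower lines, and Npy at 2 and 0.33.

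Gad1 and Lhx6 are represented by several RefSeq rows, between which kallisto divides reads from shared sequence, so the division is an estimate and was not tested. With 3 libraries against 3, an exact permutation test could not fall below 0.1. Row NM_008077.5 held 71.2% to 77.6% of the Gad1 counts in CELF2-KI RIP, 32.7% to 45.1% in IgG RIP and 64.6% to 67.0% in input. Its share was thus highest in all 3 CELF2-KI RIP libraries and lowest in all 3 IgG RIP libraries. The mean level of this row was 97.2 CPM in CELF2-KI RIP, against 31.9 CPM for IgG RIP and 61.9 CPM for input, 3.04-fold and 1.57-fold over the controls. The share of row NM_001312900.1 ran the other way, at 4.0% to 6.9% in CELF2-KI RIP, 13.4% to 21.3% in IgG RIP and 5.9% to 8.8% in input. With predicted rows left out for every gene, Gad1 passed 2-fold against IgG RIP, at a log2 fold change of 1.07 (FDR 0.000272).

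For Lhx6, row NM_001083127.1 held 43.3% to 58.3% of the counts in CELF2-KI RIP and 39.9% to 48.7% in input, but 2.0% to 23.7% in IgG RIP. Its mean level was 51.7 CPM in CELF2-KI RIP, against 3.40 CPM for IgG RIP and 17.1 CPM for input. The predicted row XM_006497744.3 held 18.6% to 25% in CELF2-KI RIP and 1.0% to 17.1% in input. In IgG RIP, on 128 to 447 Lhx6 counts per library, a different row led in each library. These were XM_006497744.3 at 58.7% in replicate 1, NM_001083125.1 at 88.9% in replicate 2 and NM_001083126.1 at 74.5% in replicate 3.

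**Figure D4:**
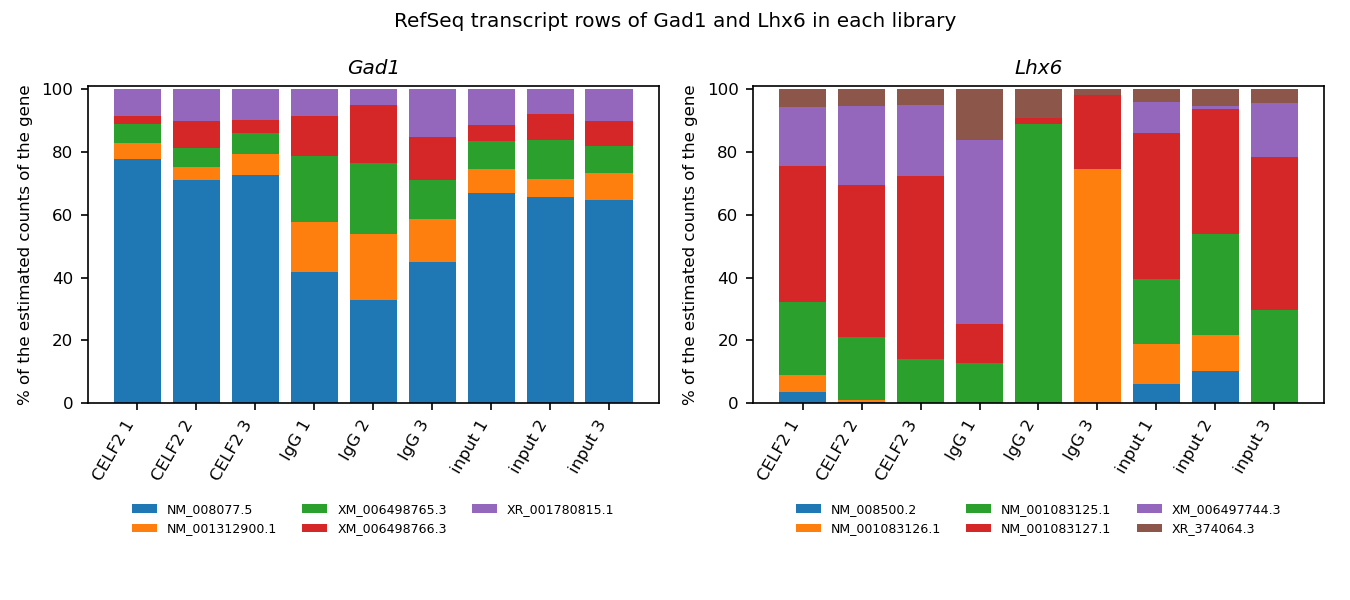
Share of the estimated counts of Gad1 (left) and Lhx6 (right) held by each RefSeq row, in percent, in each of the 9 libraries (bars, with CELF2 and IgG standing for the 2 kinds of pull-down). NM_008077.5 is the largest part of Gad1 in every library, and the 3 IgG RIP libraries differ in the row that leads for Lhx6.

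Other genes of the interneuron programme were taken from lists written by symbol with earlier results of these data known. They are given by counts and medians beside the medians of all tested genes above. For every list below, the shares of all tested genes called by edgeR were 13.4% higher and 13.5% lower against IgG RIP. Against input they were 14.6% higher and 15.5% lower. With lists this short the counts are a description. Of 16 other transcription factors of the GABAergic lineage, 3 rose against IgG RIP and 3 rose and 1 fell against input, with median log2 fold changes of 0.97 and 0.56. Sp8, a zinc finger factor of interneurons from the caudal and lateral ganglionic eminences, rose in both (1.29 and 1.19). Nr2f2 (1.15) and Prox1 (1.06), both factors of interneurons from the caudal ganglionic eminence, rose against IgG RIP. Sox6 (1.28) and Satb1 (1.24), which act after Lhx6 in the medial lineage, rose against input, and Npas1 fell (-1.10). Nrp2, a semaphorin receptor of migrating interneurons, was the 1 gene called among 7 migration and chemokine receptors, and it was called higher than both controls by edgeR (1.02 and 1.02). DESeq2 placed it short of 2-fold in both (0.95 and 0.88) and Prox1 short of it against IgG RIP.

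Of 14 other peptides and subtype markers that could be tested, 1 rose and 1 fell against IgG RIP and 3 fell against input, with medians of -0.19 and -0.96. DESeq2 called 2 lower against IgG RIP and 6 lower against input. No share of all tested genes called by DESeq2 is given here, so these counts are a description. Htr3a, a serotonin-gated channel of caudally derived interneurons, fell against both (-1.12 and -2.69), and Calb1 (-1.73) and Pnoc (-1.16) fell against input. Mean levels in CELF2-KI RIP were low, at 1.94 CPM for Htr3a, 3.97 CPM for Calb1 and 4.85 CPM for Pnoc. Tac1, the substance P precursor, rose against IgG RIP (1.46). Of 4 genes of GABA uptake and breakdown, the transporter Slc6a11 (1.57), which is also made by astrocytes, rose against IgG RIP, and against input 0 were called by edgeR or DESeq2, with 2 above and 1 below input at an unadjusted p under 0.05, beside 37.2% and 27.3% of all tested genes. The medians of these 4 were 0.83 and 0.49.

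Markers of other neurons, of the cortex and of the striatum, were set beside these. The paper states that cortices were dissected, and whether striatal tissue came with them was not tested. Of 14 markers of excitatory cortical neurons, 4 rose against IgG RIP and 4 rose and 1 fell against input, with medians of 0.46 and 0.59. Slc17a7, a vesicular glutamate transporter (2.21 and 1.5), Tbr1 (1.38 and 1.05) and Bcl11b (1.02 and 1.18) rose against both by edgeR, of which DESeq2 kept Slc17a7 against both, Tbr1 against IgG RIP and Bcl11b against input. Slc17a6 (1.11) rose against IgG RIP, and Sox5 rose (1.17) and Fezf2 fell (-1.25) against input. The summed level of this list was 2376 to 3227 CPM in CELF2-KI RIP, against 1672 to 1825 CPM for IgG RIP and 1508 to 1729 CPM for input.

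Of 9 striatal projection neuron markers that could be tested, Six3 (1.61) and Adora2a (1.13) rose against IgG RIP, and Drd2 fell against input (-1.05). The other 7 against IgG RIP and the other 8 against input were not called by edgeR. DESeq2 called 2 lower against input, again without a share over all tested genes. The medians were 0.37 and 0.44. On the TMM scale their summed level was 364.6 to 475.3 CPM in CELF2-KI RIP, against 263.8 to 354.8 CPM for IgG RIP and 297.4 to 312.2 CPM for input. With scaling by total counts the sums of CELF2-KI RIP and input overlapped. Gpr6 was too low to test. The share of GABA gene transcripts that came from striatal cells was not tested. Of the GABA genes themselves, Gad1, Gad2 and Slc32a1 summed to 383.0 to 413.7 CPM in CELF2-KI RIP, against 245.9 to 271.9 CPM for IgG RIP and 285.7 to 307.4 CPM for input. On the TMM scale these sums did not overlap between the groups. With scaling by total counts the sums of CELF2-KI RIP and input overlapped.

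The genes whose pattern over the 9 libraries was closest to a member were found by the root mean square difference in log2 CPM after centring each gene, among 9720 genes with a mean of at least 10 CPM. Closest to Gad1 were Cdh6 (0.027), Lats1 (0.069) and L3mbtl3 (0.071), where the median gene stood at 0.48. Closest to Lhx6 were Sncb (0.125), Paqr8 (0.207) and Ercc8 (0.238), where the median gene stood at 1.02. The likeness rests on 9 libraries in 3 groups and is a description.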

How the data were processed

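The 9 RIP-seq libraries (3 each of input, IgG RIP and CELF2-KI RIP) were analysed. The authors depleted rRNA, prepared directional libraries and processed reads with FastQC 0.11.9, fastp 0.23.4, Ribodetector 0.3.1 and kallisto 0.51.1, and deposited estimated counts per transcript, not normalized for depth or length. The paper names an Ensembl transcriptome, whereas the deposited rows carry RefSeq identifiers, and kallisto's strand setting is not given in the sources used here. The study's own tests used edgeR 4.4.0 and DESeq2 1.46.0.

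Of 107384 rows, 86714 (80.8%) matched the RefSeq gene table of GRCm38.p6 by identifier. Counts were summed per gene and rounded. The 15263 protein-coding genes that reached 0.5 CPM in 3 or more libraries were tested with edgeR 4.0.16 (R 4.3.3, limma 3.58.1; glmQLFit and glmQLFTest, TMM, a mean per group, biological coefficient of variation 0.221), with Benjamini-Hochberg adjustment over all genes. Calls needed an FDR under 0.01 and 2-fold. CPM are on the TMM-scaled library size. SE is the log2 fold change divided by the root of the F statistic. The procedure was tested on simulated data. DESeq2 1.42.0, other scalings, no filter, glmTreat, curated rows alone, fits of only 2 groups, a replicate block and leaving out each library were alternatives. Python 3.11.15, pandas 2.3.3 and matplotlib 3.10.9 were used.

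Without transcript lengths, levels were not compared between genes. Replicates differed by more than sampling noise (chi-square per gene 11.8 to 43.5). Deviations from group means of same-numbered libraries correlated across genes at 0.110, 0.117 and 0.123 between CELF2-KI RIP and input. Between the pull-downs they correlated at -0.056, 0.043 and 0.014, and between IgG RIP and input at 0.030, 0.065 and 0.038. Libraries of unlike number were not compared, so these values cannot show whether the numbers in the labels mark pairs. Named genes are the 9 members, the called genes of the other lists (at most 3 per direction, list and comparison), the 3 genes most like Gad1 and Lhx6, and noncoding neighbours. The members and lists were chosen with earlier results of these data known. Among the other lists, 2 genes are not reported here and were left out of their lists' counts, medians and sums.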

Additional observations from a re-analysis of the deposited data

Results flagged for a closer look

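Noncoding genes next to the 9 genes lay outside the tests of protein-coding genes. Of 7 such genes, 2 were higher in each of the CELF2-KI RIP libraries than in any of the 6 controls, beside 25.2% of the protein-coding genes tested. With so few genes this count is a description, and no share over noncoding genes is given. Mir3967 had 0 counts in every library, and Gm46745, near Gad1, had 0 to 4 per library. Gm14204, a long noncoding gene that overlaps Slc32a1, had 57.2 ± 11.0 CPM in CELF2-KI RIP (mean ± SD, n = 3), against 25.6 ± 5.47 CPM for IgG RIP and 26.4 ± 1.04 CPM for input. Dlx6os1, a long noncoding gene within 20000 bases of Dlx5, had a CELF2-KI RIP level of 157 ± 30.2 CPM, against 58.5 ± 14.0 CPM for IgG RIP and 74.0 ± 9.31 CPM for input. Neither was tested. Reads of a gene and an overlapping partner on the other strand can be divided wrongly where strand is not used in counting, and whether it was used is not given in the sources used here.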

How the results depend on the processing

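The number of the 9 genes called higher than both controls (1) and the number called higher than input (1) each fell to 0 with scaling by total counts, TMM factors over coding and noncoding genes, glmTreat against 2-fold and curated transcript rows alone, and leaving out single libraries gave ranges of 0 to 1 and 0 to 2. The number called lower than IgG RIP (1) became 2 with total counts, upper quartile scaling and TMM over coding and noncoding genes. With glmTreat the number lower than input (2) became 1 and the number lower in IgG RIP than in input (3) became 0, while leaving out single libraries gave 2 to 3 for each. Direction turned for Npy against input (-0.15 with total counts, -0.08 with TMM over coding and noncoding genes), for Slc32a1 against input (-0.11 to 0.03 over single libraries left out) and for Dlx5 in IgG RIP against input (-0.25 to 0.09). Scaling moved the median of all genes, in CELF2-KI RIP against IgG RIP, from -0.06 to between -0.42 and -0.12. Against input the median moved from 0.19 to between -0.27 and 0.05, below 0 with all but RLE factors. Relative to the median of each comparison the 9 genes moved by at most 0.03. Their own log2 fold changes therefore shifted with the median, and whether libraries overlap can change with it. The replicate block changed no call of the 9 genes, and Lhx6 against input was 1.40 (FDR 0.00365) with it. The cause of these changes was not tested. The lowest counts among the 9 genes were those of Sst and Dlx5 in CELF2-KI RIP, at 80 to 146 per library, and that of Lhx6 in IgG RIP replicate 2, at 128.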

Other observations

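Dlx1as is an antisense RNA gene that overlaps Dlx1, so the limit on strand given above holds for it. Its level was 71.8 ± 13.4 CPM in CELF2-KI RIP (mean ± SD, n = 3), against 45.7 ± 11.8 CPM for IgG RIP and 63.3 ± 1.44 CPM for input. Its CELF2-KI RIP libraries overlapped the controls. Dlx6os2, near Dlx5, was at 2.99, 3.91 and 1.30 CPM in the same order, and Gad1os, which overlaps Gad1, at 0.426, 1.14 and 0.431 CPM. Mir3967, a miRNA gene within the span of Gad2, had 0 counts in all 9 libraries. Of the 15 peptides and subtype markers, Pvalb, the marker of the other large class of interneurons from the medial ganglionic eminence, was too low to be tested at this age.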
